A study of Mus musculus with 4 samples.

Results

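Open chromatin that stands alone on its chromosome was described in satellite cells, the resident stem cells of muscle, from mdx and wild type mice. The regions are 418 of the 35019 accessible regions of an ATAC-seq table. They lie on autosomes, carry no gene in the deposited annotation, and have no other region of the table, with or without a gene, whose centre is within 150 kb of their own centre. Membership was set by position and annotation, and the library values were not used for it. A region could only be listed, however, because reads in these libraries had marked it as accessible. The other 19242 autosomal regions without a gene served for comparison.

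The study has 2 groups, both of satellite cells sorted by flow cytometry and labelled quiescent. The first carries the genotype muscular dystrophy (mdx), a dystrophin mutant that models Duchenne muscular dystrophy, and the second is wild type. Each group has 2 libraries here, numbered 1 and 2, while 3 mice per condition are named in the design. The labels used here give no treatment, strain, age or sex. The mdx mutation is carried by the whole animal, whose muscle degenerates and regenerates. The labels do not tie the libraries to separate animals, and the tests therefore rest on a spread that may be technical.

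Tn5 transposase inserts sequencing adapters where DNA is not wrapped in nucleosomes, so reads pile up at promoters and at distal elements such as enhancers and insulators. Distal elements can act on promoters over long distances through looping of the chromatin fibre. Gene-poor stretches of mammalian genomes often surround genes for developmental regulators or hold very long genes of neuronal adhesion and signalling. Values below are scaled reads per region, the authors' reads multiplied by 1 factor per library and rounded, and coordinates are those of the deposited table on mm10.

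Across the series, dividing by the library factors gave 3208479 and 3607633 reads in the listed regions for the mdx libraries, replicate 1 first here and throughout. The wild type libraries had 3693096 and 8165050, the last approximate. Wild type replicate 2 is the deepest library and has the smallest counting error. Promoter regions held 52.8% and 57.2% of nuclear scaled reads in mdx, against 64.1% and 61.1%. That share moves with the group, and its part in the results was not tested. Of 10 satellite cell markers, 6 had a promoter region in the table, among them Pax7 and Myf5. Their summed values were 1480 and 1384 in mdx and 1649 and 1568 in wild type, and 0 of 7 regions passed the test. Of 4 fibro-adipogenic markers, 2 had a promoter region, with sums of 42 and 49 in mdx and 34 and 50 in wild type. The lists of 4 markers each for endothelial cells, blood cells and mature muscle fibres had 0 promoter regions in the table.

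A small part of the isolated regions coincides with a gene start in RefSeq. No genome sequence of the build was used here, so sequence could be read only where a region overlapped a RefSeq promoter window, 250 bases before to 50 after a gene's start. This was so for 9 windows of 418 regions. The 250 bases before the start are printed for the 4 named protein-coding genes with the most overlap that have an established name, because these regions have a gene start that the deposited annotation did not link. Sequences are from RefSeq (GRCm38.p6), 5′ to 3′ on the gene's strand, with the bases inside the accessible region in capitals.
Abcg2 (chr6:58640296-58640545, plus strand): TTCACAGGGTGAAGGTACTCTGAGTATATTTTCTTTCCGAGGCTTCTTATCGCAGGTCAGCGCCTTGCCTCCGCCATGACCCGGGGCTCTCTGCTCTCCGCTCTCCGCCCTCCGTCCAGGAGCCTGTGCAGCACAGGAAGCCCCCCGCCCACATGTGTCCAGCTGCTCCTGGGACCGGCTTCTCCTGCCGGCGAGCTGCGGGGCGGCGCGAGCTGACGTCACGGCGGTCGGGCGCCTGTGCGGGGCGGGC
Scn2a (chr2:65668436-65668685, plus strand): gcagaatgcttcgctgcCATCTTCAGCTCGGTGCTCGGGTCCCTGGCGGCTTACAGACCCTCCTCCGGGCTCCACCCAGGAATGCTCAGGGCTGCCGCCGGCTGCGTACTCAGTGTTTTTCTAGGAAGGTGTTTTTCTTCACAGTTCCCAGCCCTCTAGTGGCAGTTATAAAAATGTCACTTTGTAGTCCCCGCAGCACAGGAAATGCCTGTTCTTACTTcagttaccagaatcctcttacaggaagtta
Aff3 (chr1:38627245-38627494, minus strand): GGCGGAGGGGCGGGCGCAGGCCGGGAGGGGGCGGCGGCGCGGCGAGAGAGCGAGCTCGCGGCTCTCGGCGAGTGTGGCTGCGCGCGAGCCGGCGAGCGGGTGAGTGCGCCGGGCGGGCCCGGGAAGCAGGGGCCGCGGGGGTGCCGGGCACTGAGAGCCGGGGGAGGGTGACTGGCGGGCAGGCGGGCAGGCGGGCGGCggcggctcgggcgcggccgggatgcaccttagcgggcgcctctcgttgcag
Hs3st1 (chr5:39644632-39644881, minus strand): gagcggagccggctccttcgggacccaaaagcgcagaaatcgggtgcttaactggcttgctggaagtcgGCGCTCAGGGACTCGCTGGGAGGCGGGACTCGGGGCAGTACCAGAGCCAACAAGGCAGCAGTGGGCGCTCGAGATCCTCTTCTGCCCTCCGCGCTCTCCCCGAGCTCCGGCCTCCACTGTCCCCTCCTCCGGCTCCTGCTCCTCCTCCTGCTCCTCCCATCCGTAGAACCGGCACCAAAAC

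The window of Abcg2, a drug efflux transporter found in many stem cells, lay wholly inside an accessible region. That region held 174 and 171 scaled reads in mdx, against 171 and 163 in wild type, so the 4 libraries were close together. The region at Hs3st1, a heparan sulfate sulfotransferase, held 12 and 19 in mdx and 70 and 35 in wild type, and the groups did not overlap. Its log2 fold change was -1.65 with SE 0.48, which did not pass the test (limma, adjusted p = 0.0707). At Aff3, a nuclear factor of the AF4 family, the values were 22 and 15 against 40 and 39 (-1.08, limma, adjusted p = 0.166). At Scn2a, a neuronal sodium channel, they were 19 and 36 against 17 and 31, which overlap.

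The windows differ in base composition. GC content was 83.3% at Aff3, 67.0% at Abcg2 and at Hs3st1 and 47.7% at Scn2a, against a median of 52.7% over the 32851 RefSeq windows. Motifs were searched on both strands of the 300-base windows. KLF/SP (CCGCCC) was found in 3 of the 9 windows and in 35.7% of all windows. The core of the CTCF motif was found in 2 of 9, those of Scn2a and the noncoding Gm46796, and in 2.43% of all. E-box (CANNTG) was found in 4 of 9 against 72.3%, TEAD (GGAATG) in 2 of 9 against 14.7%, and RUNX (TGTGGT) in 1 of 9 against 16.8%. AP-1 (TGANTCA), NFI and MEF2 motifs were found in 0 of 9, against 7.81%, 6.22% and 0.11% of all windows.

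The isolated regions lay farther from protein-coding genes and from gene starts than other regions without a gene. The nearest other region was a median of 235 kb away (quartiles 182 and 336 kb), 139 of the 418 were over 300 kb away and 11 over 1 Mb. RefSeq places 181 of the 418 (43.3%) inside a gene of any kind, noncoding genes included, against 57.9% of the other autosomal regions without a gene. It places 33.0% inside a protein-coding gene, against 48.4%. The median distance to the body of the nearest protein-coding gene was 132 kb, against 2.04 kb. Within 500 kb on either side there was a median of 2 protein-coding genes, against 7, and 53 of the 418 (12.7%) had 0, against 1.94%. The nearest gene start was a median of 115 kb away, against 31.8 kb, and over 100 kb away for 54.7%, against 19.0%. Start distances exclude chromosome 18, for which the promoter table gave no value. On each of these measures the isolated regions lay in gene-poorer surroundings, as their label says, and part of this follows from the rule on distance.

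**Figure D1:**
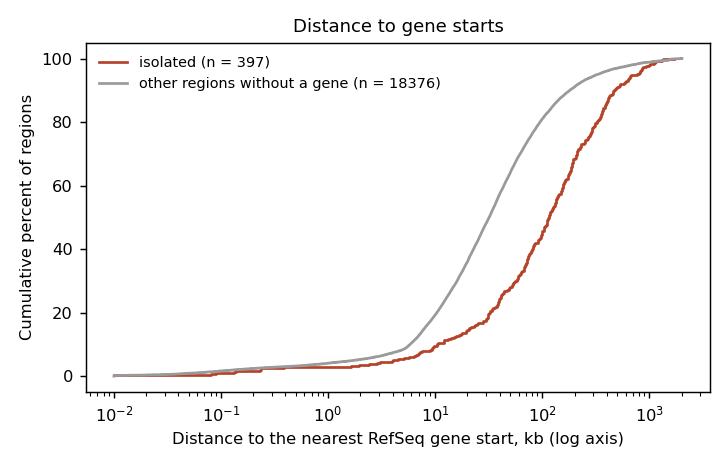
Cumulative percent of regions (vertical axis) by distance to the nearest RefSeq gene start in kb (horizontal log axis), for 397 isolated regions and 18376 other autosomal regions without a gene, chromosome 18 left out. The isolated regions lie to the right, with a median of 115 kb against 31.8 kb.

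The isolated regions were spread over all autosomes. They made up 0.687% of regions without a gene on chromosome 7, the lowest share (8 of 1164), and 3.01% on chromosome 16, the highest (24 of 797). Chromosomes 14 and 12 followed with 2.97% and 2.89%. Few lay near the chromosome ends: 4 were within 2 Mb of the first region of their chromosome and 6 within 2 Mb of the last. The isolated regions were about as wide as others, with a median of 258 bases against 283.

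By the nearest protein-coding gene, 68 of the 418 (16.3%) fell into 5 gene groups, against 4.15% of the other regions without a gene. Neuronal adhesion genes such as Cntnap2, Tenm2 and Lrrc4c were nearest to 23 (5.50% against 0.670%). Neurotransmitter receptor genes such as Grik2, Grm7 and Grin2b were nearest to 12 (2.87% against 0.348%), and cadherins and protocadherins to 12 (2.87% against 0.748%). Developmental transcription factors such as Pax3, Meis2 and Nr2f1 were nearest to 15 (3.59% against 2.0%), and olfactory and vomeronasal receptors to 6 (1.44% against 0.385%). These shares describe location and carry no test.

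In every library the isolated regions were weaker than the other regions without a gene. Their median was 35 and 30 scaled reads in mdx, above the 20 and 24 of wild type. The medians of the other regions were 41 and 37 in mdx and 29 and 32 in wild type. On the log2(value + 1) scale the isolated minus the other median was -0.222 and -0.294 in mdx and -0.515 and -0.401 in wild type. The mean difference was -0.358 (SD 0.128, n = 4 libraries), lower in 4 of 4 (exact sign-flip permutation test, two-sided, p = 0.125, the smallest that 4 libraries allow). The 2 mdx differences lay closer to 0 than the 2 wild type ones, which an exact permutation test of 2 against 2 cannot place below p = 0.333.

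Isolated regions took a larger share of reads in mdx. They held 0.698% and 0.600% of autosomal scaled reads in mdx, against 0.413% and 0.476%, and the groups did not overlap. The means were 0.649% ± 0.069 and 0.444% ± 0.0446 (SD, n = 2 each), a difference of 0.204 percentage points (exact permutation test, two-sided, p = 0.333, the smallest possible). All autosomal regions without a gene also took more in mdx, 40.3% and 36.1% against 29.6% and 32.5%. Counted within those regions alone, the isolated ones still held more in mdx, 1.73% and 1.66% against 1.39% and 1.46% (exact permutation test, two-sided, p = 0.333).

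The comparison of mdx with wild type asked which isolated regions differ in accessibility between dystrophic and normal stem cells. Of the 418, 386 reached 10 scaled reads in 2 or more libraries and were tested, and 32 were not. Isolated regions rose in mdx in 70 cases and fell in 5 (limma, adjusted p under 0.05). That is 19.4% of those tested, against 4.18% of all 33161 tested regions and 5.16% of the 17937 other tested autosomal regions without a gene. Higher calls made up 18.1% of isolated regions, against 3.3% of all and 4.74% of the others without a gene. Lower calls made up 1.30%, against 0.881% and 0.424%. Without any 1 of the 4 libraries, 1 group holds a lone library assumed to vary like the other group, and 0 regions of the whole table passed (limma). With all 4 libraries, 178 of the 386 isolated regions had an unadjusted p under 0.05 (limma). So had 7626 of the 33161 tested regions and 4358 of the 17937 others without a gene.

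The filter bears on these counts, because a region that passes it only through 1 group had to differ. In 43 isolated regions both mdx libraries and neither wild type library reached 10, and in 20 the reverse held. With no filter, all 418 were tested and 40 passed, 38 higher and 2 lower (limma, 9.57%). The same fit called 1.31% of all 35019 regions and 1.69% of the 19242 others without a gene. As deposited, 93.3% of the isolated calls were higher, against 91.8% of calls among the others without a gene and 78.9% among all regions. The isolated share depends on the scaling and was 67.5% (79 higher and 38 lower) with the medians of distal regions set equal. Under that scaling 30.3% of isolated regions passed, against 14.1% of all tested regions, a smaller contrast than 19.4% against 4.18%. It moved the median log2 fold change of all tested regions from -0.01 to -0.35, and setting promoter medians equal moved it to 0.19. The isolated median was 0.41 as deposited, 0.08 and 0.61 under these scalings, above that of all regions each time. Both mdx libraries lay above both wild type libraries in 177 of the 386 (45.9%), against 26.8% of all tested regions and 36.3% of the others without a gene. Both lay below in 82 (21.2%), against 25.9% and 15.8%.

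**Figure D2:**
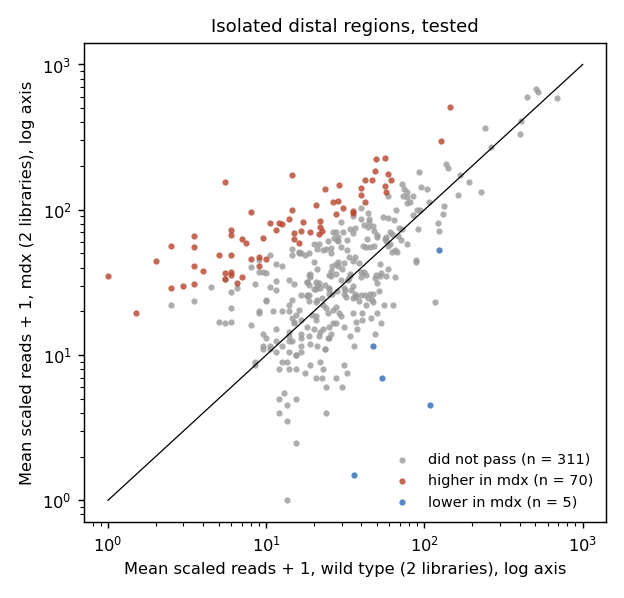
Mean scaled reads plus 1 of each of the 386 tested isolated regions in wild type (horizontal log axis) and mdx (vertical log axis), 2 libraries each, with the line of equality. The 70 regions that rose lie above the line, many at low wild type values, and the 5 that fell lie below it.

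The median log2 fold change, mdx minus wild type, was 0.41 over the tested isolated regions, 0.22 over the other regions without a gene and -0.01 over all tested regions. With no filter the median of all 418 was 0.38, and 254 of them (60.8%) were above 0, against 61.4% of the others. The share above 0 was thus close to that of the other distal regions. Spread was taken with the filter, over 386 isolated regions and 17937 others. There the median absolute difference between group means was 0.90 in isolated regions and 0.47 in the others. The differences between libraries of 1 group were larger too, 0.53 against 0.42 between the mdx libraries and 0.49 against 0.39 between the wild type libraries. The filter admitted 43 isolated regions through mdx alone and 20 through wild type alone, against 401 and 341 of the others. Such regions had to differ, which bears on the 0.90.

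The share of changed regions was higher in each wider class of distance to the nearest region. It is given first with no filter on low values, since the filter admits a larger share of regions through mdx alone in the wider classes. Among all autosomal regions without a gene, 1.09% passed under 10 kb, 1.91% at 10 to 50 kb and 3.27% at 50 to 150 kb (limma). Of the isolated regions, 24 of 279 (8.60%) passed at 150 to 300 kb and 16 of 139 (11.5%) beyond 300 kb. All 24 were higher in mdx, and of the 16, 14 were higher and 2 lower. Isolated autosomal regions that do carry a gene had 4 gains and 5 losses of 302 (2.98%). With the filter the shares for the 5 classes were 4.17%, 5.33%, 8.41%, 17.3% (44 of 255) and 23.7% (31 of 131). Both mdx libraries and neither wild type library reached 10 in 120 of 8272, 200 of 9076, 81 of 1894, 29 of 279 and 14 of 139 regions of these classes.

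**Figure D3:**
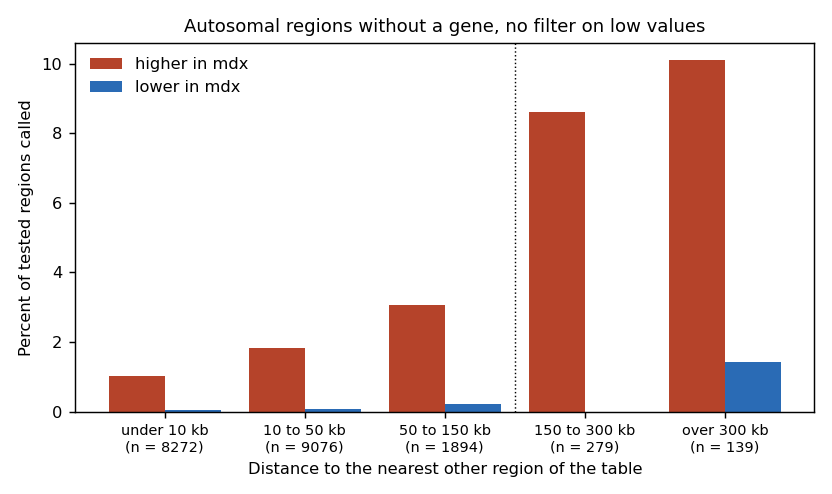
Percent of autosomal regions without a gene that passed the test with no filter on low values (vertical axis), higher or lower in mdx, by distance to the nearest other region (horizontal axis, n under each class). The dotted line marks 150 kb, and the share higher in mdx is 1.03% in the first class and 10.1% in the last.

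Isolated regions had the higher share of calls in each class of signal level. With no filter, 3 of 136 isolated regions with a mean under 20 passed (2.21%), against 0.608% of the others. The shares were 9.22% against 1.12% at 20 to 40, 14.8% against 2.43% at 40 to 80 and 23.7% against 3.22% at 80 to 160. At 160 and over there were only 15 isolated regions, of which 2 passed (13.3% against 2.43%). Regions are not replicates, so these shares carry no test.

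**Figure D4:**
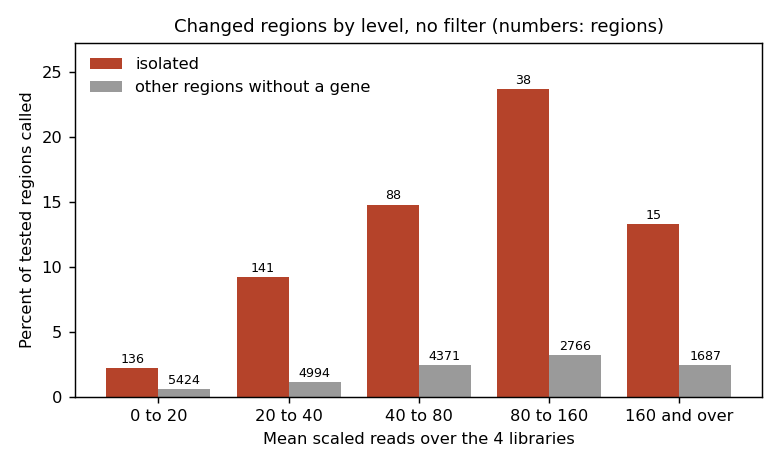
Percent of regions that passed the test with no filter on low values (vertical axis) by mean scaled reads over the 4 libraries (horizontal axis), for isolated and other autosomal regions without a gene, with the number of regions above each bar. The isolated bar is the higher one in each of the 5 classes, the last of which holds 15 isolated regions.

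Changed regions were found both inside and outside genes. With no filter, 11 of 138 isolated regions inside protein-coding genes passed (7.97%, all higher), and 27 gains and 2 losses were found among 280 outside them (10.4%). With 0 protein-coding genes within 500 kb, 6 of 53 passed (11.3%), and with at least 1, 34 of 365 (9.32%). With the filter, gains were found on all 19 autosomes, from 2 of 21 tested on chromosome 4 to 8 of 25 on chromosome 14. On chromosome 7, 3 of only 7 rose. The share that rose was 18.1% of all tested isolated regions and 3.3% of all tested regions. Both wild type libraries were under 10 in 28 of the 70 filtered gains, and 38 isolated regions rose with no filter. No share of all regions was taken per chromosome, so nothing particular to a chromosome is drawn from these counts.

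The 70 regions that rose spanned a wide range of signal in wild type. Their wild type means ranged from 0 to 145 scaled reads with a median of 13.2, and their mdx means from 18.5 to 511.5 with a median of 71.2. In 28 of the 70 both wild type libraries were under 10, and in 7 at least 1 wild type library was at 0. In 35 all 4 libraries had at least 10, and in 20 at least 1 wild type library reached 30. Mdx replicate 1 was above mdx replicate 2 in 57 of the 70, equal in 1 and below in 12. The medians of these 2 libraries had the same order over all isolated regions (35 and 30) and over the other regions without a gene (41 and 37). The log2 fold changes of the 70 ran from 1.20 to 5.13 with a median of 2.38, against 1.89 over all regions that rose.

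The largest gain lay on chromosome 11 in a stretch whose nearest protein-coding gene, Cobl, an actin nucleator, is 1060 kb away. This region, chr11:13523663-13524258, held 202 and 107 scaled reads in mdx, against 1 and 8. The log2 fold change was 5.13 with SE 0.65 (limma, adjusted p = 0.00378). With wild type under 10 in both libraries, it entered the test through mdx alone, as did each of the 10 largest gains, and with no filter its adjusted p was 0.0252 (limma). The second, chr17:59076892-59077081, 63.6 kb from Nudt12, an NADH pyrophosphatase gene, held 55 and 13 in mdx and 0 and 0 in wild type. Against a floor of 3 reads over the wild type group it was at least 30.6-fold higher in mdx (limma, adjusted p = 0.022, and 0.0409 with no filter).

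A region inside Ebf1, a transcription factor of B cell and mesenchymal development, chr11:44948699-44948884, held 61 and 26 in mdx and 1 and 1 in wild type. Only 3 wild type reads were recovered there, which gives a ratio of pooled reads of 39.6 with a 95% exact interval of 13 to 197.0 for counting error alone (limma, adjusted p = 0.0109, and 0.0316 with no filter). At 72.8 kb from Oprm1, the mu opioid receptor gene, chr10:6685707-6685911 held 77 and 66 against 1 and 9, the closest agreement between mdx libraries among the 10 largest gains. Its log2 fold change was 4.01 with SE 0.69 (limma, adjusted p = 0.0116, and 0.0419 with no filter).

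Of the rest of the 10 largest gains, 5 are described here, each with wild type values of at most 5. They included chr3:56962656-56962906, 323 kb from the protein-coding gene Tm4sf1 (76 and 35 against 0 and 3), and chr3:118070220-118070546, 201 kb from the sorting nexin gene Snx7 (88 and 42 against 1 and 4). Both also passed with no filter (limma, adjusted p = 0.0347 and 0.0316). At 221 kb from Sema3d, a secreted guidance cue, chr5:12809949-12810208 held 86 and 22 against 0 and 5. Inside Immp2l, which encodes a mitochondrial inner membrane peptidase subunit, chr12:41949820-41950060 held 61 and 19 against 0 and 5. In the last 2, mdx replicate 1 was over 3 times mdx replicate 2, and the SE were 0.91 and 0.92. At 310 kb from BC048507 and 7.63 kb from AA414992, chr13:68173586-68173758 held 25 and 12 against 0 and 1. The calls of the last 3 of these, nearest to Sema3d, Immp2l and BC048507, ended with no filter on low values (limma, adjusted p = 0.0654, 0.0758 and 0.06).

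The 5 smallest gains that passed had far more signal in wild type. A region of 979 bases on chromosome 16, chr16:71851558-71852537, 175 kb from the Slit receptor gene Robo1, held 290 and 302 in mdx and 127 and 127 in wild type. Its log2 fold change was 1.21 with SE 0.21 (limma, adjusted p = 0.0116), and replicates differed by far less than the groups. A region 154 kb from the glutamate receptor gene Grin2b, chr6:135559460-135559865, held 171 and 117 against 57 and 54 (1.33, limma, adjusted p = 0.028). The region chr14:81687519-81688096, with Olfm4 as the nearest protein-coding gene 1660 kb away, held 152 and 112 against 60 and 53 (1.20). Under equal distal medians its change was 0.86 and no longer passed (limma, adjusted p = 0.0614).

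The remaining pair of small gains lay 335 kb from Plcl1, a phospholipase C-like gene, and inside Ptprr, a tyrosine phosphatase gene. The first, chr1:56089433-56089878, 69.5 kb from the gene 1700003I22Rik, held 178 and 139 against 45 and 76 (1.41, limma, adjusted p = 0.0285). The second, chr10:116072798-116073333, held 109 and 78 against 28 and 41 (1.42, limma, adjusted p = 0.0423). With no filter, the calls of 4 of these 5 ended (limma, adjusted p from 0.0569 to 0.0768), and that of the region on chromosome 16 did not (0.0325).

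The 5 losses were all outside protein-coding genes. The clearest, chr3:47280233-47280622, lay 832 kb from Pabpc4l, a poly(A)-binding protein gene, and held 6 and 6 scaled reads in mdx, against 60 and 46. Its log2 fold change was -2.94 with SE 0.50 (limma, adjusted p = 0.0111), and it also passed without the filter. On chromosome 5, a region inside the noncoding gene 4930431F12Rik, chr5:44975843-44976119, held 0 and 1 in mdx and 54 and 16 in wild type (-4.43, limma, adjusted p = 0.0217, and 0.0435 with no filter). With 1 mdx read recovered, the ratio of pooled reads was 42.8 in favour of wild type, with a 95% exact interval of 7.45 to 1710.0.

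One loss rested largely on 1 library. The region chr8:5428436-5428970, with the bile acid transporter gene Slc10a2 323 kb away, held 6 and 1 in mdx and 18 and 198 in wild type (-4.04, limma, adjusted p = 0.0362). It did not pass with voom on the recovered reads (adjusted p = 0.125) or with no filter (0.0822). The others were chr10:113946747-113947103, 452 kb from Trhde, which encodes an enzyme that degrades thyrotropin-releasing hormone (14 and 7 against 50 and 43, -2.11), and chr14:111226726-111227268, 448 kb from Slitrk5, a synaptic adhesion gene (64 and 40 against 138 and 107, -1.25). Both calls ended with promoter medians set equal (limma, adjusted p = 0.0519 and 0.0817) and with no filter (0.0698 and 0.0828).

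**Figure D5:**
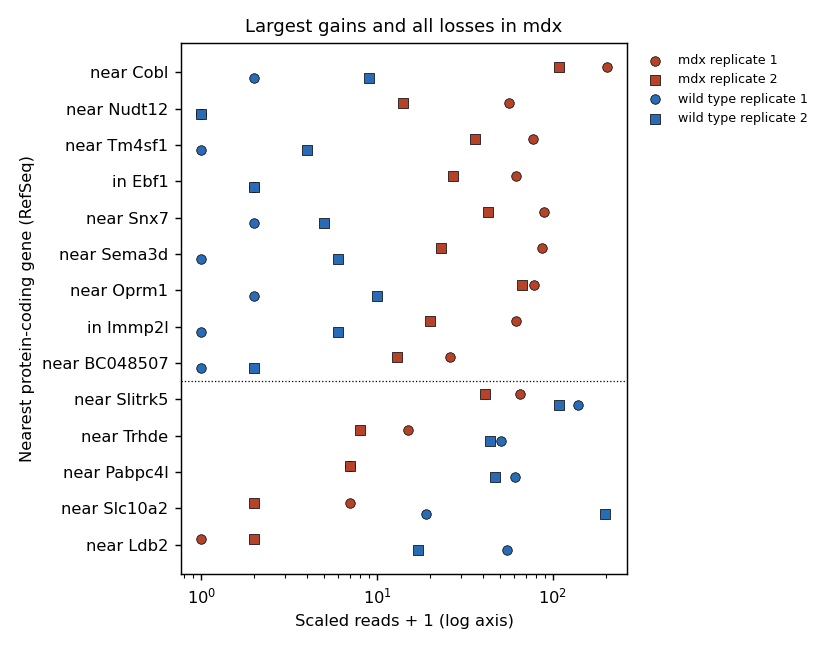
Scaled reads plus 1 (horizontal log axis) in 9 of the 10 largest gains and the 5 losses, named by the protein-coding gene around or nearest to them, with 1 point per library (equal values overlap). Gains stand above the dotted line and losses below it, and the regions were chosen for these changes, so the separation of the groups is not a result.

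Calls in the gene groups are read against the 18.1% of tested isolated regions that rose and the 3.3% of all tested regions, and nothing particular to a group is drawn from them. Neuronal adhesion genes had 21 tested isolated regions, of which 5 rose and 0 fell, and 3 rose with no filter. A region inside Negr1, chr3:156791388-156791620, held 46 and 49 against 2 and 6 (3.40, limma, adjusted p = 0.0132, and 0.0376 with no filter). A region inside Opcml, chr9:28101988-28102300, held 91 and 73 against 12 and 20 (2.32, limma, adjusted p = 0.0125). These encode neuronal cell adhesion proteins anchored in the membrane by a lipid. The other gains of the group lay 609 kb from Cntn5, inside Csmd1 and 554 kb from Tenm4, with log2 fold changes of 3.02, 1.93 and 2.56. With no filter the first passed and the other two did not (limma, adjusted p = 0.0324, 0.0789 and 0.0635). The median over the 21 was -0.28, below 0 in spite of these gains.

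Of 11 tested regions whose nearest gene is a neurotransmitter receptor, 3 rose and 0 fell, with a median of 0.09, and 2 rose with no filter. Inside Grm7, a metabotropic glutamate receptor gene, chr6:111054232-111054784 held 82 and 78 against 11 and 8 (2.96, limma, adjusted p = 0.00629). Another isolated region nearest to the same gene, chr6:111584992-111585245, had the opposite order, with 3 and 12 against 26 and 34, and did not pass (-2.09, limma, adjusted p = 0.0859). The others were the region 154 kb from Grin2b, above, and one 54.7 kb from Htr1f (138 and 91 against 37 and 18). Olfactory and vomeronasal receptor genes had 6 tested regions, of which 3 rose with and without the filter, 2.92 to 10.5 kb from Olfr16 (611 and 412 against 121 and 169), Vmn1r43 (223 and 232 against 48 and 63) and Olfr266 (177 and 117 against 13 and 43).

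Among developmental transcription factors, 3 of 14 tested regions rose and 0 fell, with a median of -0.32, and 2 rose with no filter. Besides the region in Ebf1, 2 lay 430 and 831 kb to the same side of Nr2f1, an orphan nuclear receptor gene, the first inside the gene Gm32067. They were chr13:78629033-78629454, with 79 and 57 against 10 and 18, and chr13:79030167-79030331, with 37 and 23 against 2 and 3. Of 11 tested regions nearest to cadherins and protocadherins, 1 rose. It lies 166 bases outside the body of Cdh2, the gene of N-cadherin, an adhesion molecule between satellite cells and muscle fibres. With no start distance for chromosome 18, which end of the gene this is was not read. The region, chr18:16588608-16588814, held 47 and 43 against 5 and 9 (2.57, limma, adjusted p = 0.0224, and 0.0497 with no filter).

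Calls in neighbouring isolated regions were also counted by pair. There were 80 pairs of isolated regions with no other region of the table between them, and both members were tested in 72. Both rose in 3 pairs, 0 pairs both fell, 1 pair had a gain beside a loss, 19 pairs had 1 call and 49 had none. With 18.1% of tested isolated regions higher, some pairs would both be higher even if neighbours changed independently. No link between neighbours is therefore drawn from these pairs. The 3 pairs were the regions 430 and 831 kb from Nr2f1, 401 kb apart, a pair in Itgbl1 and Fgf14, 546 kb apart, and a pair on either side of Zfp804a, 988 kb apart. With no filter, 1 call of each pair ended (limma, adjusted p = 0.0504 for the first of the Nr2f1 pair, 0.0668 for the region in Fgf14 and 0.0609 for the second of the Zfp804a pair). The pair around Zfp804a, 466 and 312 kb from it, held 30 and 44 against 4 and 2 at chr2:81583790-81583989, and 54 and 42 against 1 and 9 at chr2:82572185-82572377.

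The most isolated region of the table without a gene lay inside Lrrc4c, which encodes a netrin-G ligand. Its nearest neighbour was 2995541.5 bases away. This region, chr2:97466251-97466694, held 84 and 56 in mdx and 117 and 127 in wild type, and the groups did not overlap. The log2 fold change of -0.82 with SE 0.29 did not pass (limma, adjusted p = 0.122), but under equal distal medians it did, as lower in mdx (-1.16, adjusted p = 0.0145). The next, chr14:109214916-109215196, was 2011941.0 bases from its neighbour and 301 kb from Slitrk1. It rose, with 127 and 76 against 32 and 27 (1.71, limma, adjusted p = 0.0244, and 0.0554 with no filter).

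Of the other 4 most isolated regions, 2 rose. The region chr17:93380020-93380358, 174 kb from Adcyap1, the gene of the neuropeptide PACAP, held 227 and 119 in mdx and 9 and 18 in wild type. Its log2 fold change of 3.58 with SE 0.43 had the smallest adjusted p of all isolated regions (limma, adjusted p = 0.00331). A region inside Dcc, a netrin receptor gene, chr18:72101240-72101528, held 68 and 56 against 12 and 16 (2.08, limma, adjusted p = 0.0222). The region chr14:91630968-91631230, 1380 kb from Pcdh9, held 14 and 28 against 56 and 27, which overlap. The region chr10:47426422-47426570, 1670 kb from Grik2, held 3 and 0 against 2 and 5 and was not tested.

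None of the 6 strongest isolated regions passed in the reported fit. A region inside Catspere2, a gene of a sperm ion channel complex, chr1:177982987-177983745, held 546 and 623 in mdx and 777 and 604 in wild type. A region 15.3 kb from Rit2, a small GTPase gene, chr18:30958710-30959396, held 710 and 646 against 511 and 495. The groups overlap in the first and not in the second, and neither passed (limma, adjusted p = 0.451 and 0.13). The region at Rit2 passed as higher with promoter medians set equal (adjusted p = 0.0314) and after cyclic loess (0.0102).

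The third strongest, chr11:15769740-15770526, held 658 and 625 against 529 and 512. The fourth, chr7:58398930-58399639, held 668 and 533 against 430 and 459. It is the 1 isolated region of 418 within 500 bases of a tRNA gene, n-TEttc7, against 46 of the 19242 others (0.239% of each). Both passed as higher after cyclic loess (limma, adjusted p = 0.0314 and 0.0243), and with none of equal totals, promoter medians or distal medians. The last 2 of the 6, chr10:38553508-38554348 and chr9:30137522-30138191 near neurotrimin (Ntm), held 426 and 383 against 382 and 428, and 348 and 311 against 434 and 369.

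The widest isolated region and the next were far wider than the rest. The widest, chr11:34543614-34682831, spans 139217 bases of Dock2, a guanine nucleotide exchange factor gene of blood cells, and held only 50 and 77 scaled reads in mdx, against 51 and 62. That is 0.0431 scaled reads per 100 bases, against 86.1 in the strong region at Rit2. The next, chr16:3231761-3240920, is 9159 bases wide and held 350 and 374 against 233 and 245, with groups that do not overlap (0.60, limma, adjusted p = 0.0857). It passed as higher with promoter medians set equal (adjusted p = 0.0285) and after cyclic loess (0.0221). The third widest, chr8:76346135-76347136, is only 1001 bases wide and held 315 and 220 against 221 and 302.

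Regions on either side of the 150 kb threshold were as follows, as a description. Just inside it, besides the strong region on chromosome 11, chr11:15920015-15920293 held 28 and 23 in mdx and 15 and 56 in wild type. Also inside, chr6:8032635-8032955, within the collagen gene Col28a1, held 46 and 30 against 22 and 36. Just outside it, chr10:124138587-124138738 held 39 and 41 against 6 and 7. It passed as higher in mdx (2.45, limma, adjusted p = 0.0246), though not with no filter (0.0514). Also outside, chr7:125242793-125243201 held 21 and 91 against 53 and 60. The third just outside, chr8:121346924-121347105, held 14 and 22 against 23 and 24.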

How the data were processed

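Accessibility was measured by ATAC-seq. The submitters' processing notes name MACS2 2.1.0, Picard 2.9.0, Trimmomatic 0.33 and STAR 2.5.3a besides DESeq and DESeq2, with mm10 as build. What each did, any Tn5 shift of reads and any pooling before peak calling were not given in the sources used here. Values as deposited by the authors are a score: reads per region multiplied by a library factor and rounded. This was read from whole numbers that never occur (factors 1.38202, 1.16194 and 1.22158) or occur too often (0.49205, approximate). Whether starts count from 0 or 1 is not stated.

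The test was limma 3.58.1 (R 4.3.3) with an intensity trend on log2(value + 1) with a single group term, fitted to all regions with at least 10 in 2 libraries and adjusted by Benjamini-Hochberg over all 33161. Fold changes understate low regions. The code was tested on simulated data. Gene positions were RefSeq GRCm38.p6, with 10211 symbols matched, 99.89% of them at overlapping positions. Intervals and floors cover counting error only. Exact permutation tests used Python 3.11.15.

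Named regions are the 10 highest and 10 lowest fold changes among those that passed, the 6 strongest, the 6 most distant, the 3 widest, 3 on either side of the threshold, and, chosen after their values were seen, the regions at gene starts, in gene groups and in pairs. The members, lists and rules were chosen with earlier results of these data known. Alternatives covered scaling, pseudocount, filter, voom, replicate block, isolation distance and leaving out libraries. Of the 10 highest, 1 is not reported here.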

Additional observations from a re-analysis of the deposited data

How the results depend on the processing

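Isolated regions higher in mdx numbered 70 of the 386 tested. With equal totals, promoter medians or distal medians, cyclic loess, a pseudocount of 5 or voom they numbered 79 to 90 of 386. At a mean value of at least 20 they numbered 81 of 282. Calls of either direction in these fits made up 23.3% to 31.9% of tested isolated regions. They made up 5.9% to 14.1% of all tested regions, where the reported fit has 19.4% and 4.18%. Those higher numbered 38 of 418 with no filter, 113 of 753 tested at an isolation distance of 100 kb and 33 of 172 at 250 kb. Those lower numbered 5, and 3 with promoter medians set equal, 38 with distal medians set equal, 14 after cyclic loess, 11 with a pseudocount of 5, 2 with no filter, 9 at a mean value of at least 20 and 10 at 100 kb. The median log2 fold change of 0.41 was 0.61 with promoter medians and 0.08 with distal medians set equal. Without 1 library the counts were 0 to 0 for both directions, since 1 group then holds 1 library. The median log2 fold change then ranged from 0.2 to 0.61, the lowest without wild type replicate 1. All 75 called regions kept their sign in every fit that tested them. They were called in these same 4 libraries, so this was largely fixed in advance and is not support. With all 4 libraries at least 73 stayed called, except 40 with no filter and 65 of 65 tested at a mean of at least 20.

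The planned scaling by TMM factors is left out, because that tool is meant for counts and these values are not counts. With the replicate block, 100 were higher and 16 lower, which is 30.1% of tested isolated regions against 8.33% of all tested regions. Deviations of same-numbered libraries correlated at -0.109 over all tested regions, so the numbers are not shown to pair the libraries. With crossed pairing, a replicate block added after seeing the data, 125 were higher and 28 lower. That fit called 39.6% of tested isolated regions and 16.5% of all tested regions, so calls rose over the whole table.

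Directions that turned belong to regions that did not pass: chr1:177982987-177983745 after cyclic loess (0.02), chr11:15769740-15770526 with distal medians set equal (-0.04), and chr11:34543614-34682831 with distal medians set equal (-0.2), after cyclic loess (-0.01) and without mdx replicate 2 (-0.17, against 0.45 without mdx replicate 1). For chr8:76346135-76347136 the value was -0.31 with distal medians set equal, -0.06 with voom and from -0.23 to 0.28 leaving out 1 library. For chr11:15920015-15920293 it ran from -1.11 to 0.72, the highest without wild type replicate 2, and for chr7:125242793-125243201 from -1.38 to 0.68, the highest without mdx replicate 1. Where no value above shows it, the cause was not tested. The share of reads and the level kept their direction in every alternative run. Isolated regions have a median of 20 to 35 scaled reads per library, which limits the precision.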
